A study of Mus musculus with 18 samples.

Results

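The collagen genes were read from RNA sequencing of primary fibroblasts that were grown from mouse tail tips and taken at passage 5, in a series on CRISPR/Cas9 treatment of a mouse model of Hutchinson-Gilford progeria. All symbols made of Col, a number, the letter a and a number were taken as members, with 1 transcript per symbol, which gave 44 collagen genes of 24445 named genes in the table. By textbook structure they comprised 11 fibrillar, 6 basement membrane, 6 beaded filament, 9 fibril-associated, 3 hexagonal network, 4 transmembrane and 2 multiplexin collagens, the anchoring fibril collagen Col7a1 and 2 others. There were 3 genotypes of 2-month-old mice. Pro/Pro;Cas9/+ mice carry the progeria allele of Lmna, written Pro, on both chromosomes together with 1 copy of a Cas9 allele, and their cells are called homozygous Cas9 cells here. Pro/+; +/+ mice carry 1 Pro allele and no Cas9, and their cells are called heterozygous cells. +/+;Cas9/+ mice have no Pro allele and 1 copy of Cas9, and their cells are called wild-type Cas9 cells. Cells of each mouse received lentivirus with the guide RNA gLmna-2, the guide gLmna-1, or a mock guide, gMock. Both first guides target Lmna, the gene of lamins A and C, and the virus also carried mCherry. All cultures had been through this transduction, and most cells but not all were mCherry-positive, with no sorting or selection afterwards. With 2 mice per genotype, called replicate 1 and replicate 2, there were 9 groups of 2 libraries. The labels of 1 heterozygous mouse can be read as 1 animal or as a pool, and the promoter that drives Cas9 is not given in the sources used here. Levels are in FPKM, fragments scaled by the length of the transcript and by the depth of the library, so that levels of different genes can be set side by side.

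Collagens are secreted proteins whose chains wind around each other into a stiff helix, and each type is built from its own chains. Fibrillar collagens assemble end to end and side by side into the fibres of skin, tendon and bone, while type IV forms the sheet-like network under epithelia and around vessels, type VI forms beaded filaments near cells, and fibril-associated types sit on the surface of fibrils. Fibroblasts make most of the type I, III, V and VI collagen of connective tissue, whereas types II, IX, X and XI are best known from cartilage.

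Promoters of 4 members are printed because they show the start region shared by the abundant head-to-head pair Col4a1 and Col4a2, a type I chain gene, and Col11a1, which did not overlap between libraries with and without a Pro allele and had the lowest adjusted p between guides. Each window runs from 250 bases before to 50 bases after the transcript start and is read 5′ to 3′ on the gene's strand, from RefSeq on GRCm38.p6, the assembly of the mm10 build used for the table. Capitals mark CCAAT boxes, which are bound by NF-Y, and GC boxes (GGGCGG), which are bound by Sp1-type factors, both searched on both strands, and capital runs where matches overlap are longer.
Col4a1 (chr8:11312777-11313076, minus strand): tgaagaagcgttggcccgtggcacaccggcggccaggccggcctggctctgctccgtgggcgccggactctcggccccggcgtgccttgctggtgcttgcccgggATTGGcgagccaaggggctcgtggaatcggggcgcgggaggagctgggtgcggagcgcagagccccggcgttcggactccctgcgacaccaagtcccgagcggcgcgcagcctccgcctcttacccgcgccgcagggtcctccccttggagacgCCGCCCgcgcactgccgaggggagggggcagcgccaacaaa
Col4a2 (chr8:11312555-11312854, plus strand): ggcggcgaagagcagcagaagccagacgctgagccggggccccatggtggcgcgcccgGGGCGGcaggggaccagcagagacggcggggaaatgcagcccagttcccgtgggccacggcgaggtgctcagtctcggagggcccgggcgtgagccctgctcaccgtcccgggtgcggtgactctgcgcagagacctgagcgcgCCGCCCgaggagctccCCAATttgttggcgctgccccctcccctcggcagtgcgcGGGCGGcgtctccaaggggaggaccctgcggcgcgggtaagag
Col1a2 (chr6:4505368-4505667, plus strand): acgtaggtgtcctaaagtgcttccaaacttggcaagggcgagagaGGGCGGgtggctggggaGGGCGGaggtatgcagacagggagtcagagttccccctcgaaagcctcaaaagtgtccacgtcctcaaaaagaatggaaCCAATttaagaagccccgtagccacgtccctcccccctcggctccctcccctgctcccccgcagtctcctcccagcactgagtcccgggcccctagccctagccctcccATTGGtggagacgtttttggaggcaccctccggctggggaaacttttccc
Col11a1 (chr3:114030290-114030589, plus strand): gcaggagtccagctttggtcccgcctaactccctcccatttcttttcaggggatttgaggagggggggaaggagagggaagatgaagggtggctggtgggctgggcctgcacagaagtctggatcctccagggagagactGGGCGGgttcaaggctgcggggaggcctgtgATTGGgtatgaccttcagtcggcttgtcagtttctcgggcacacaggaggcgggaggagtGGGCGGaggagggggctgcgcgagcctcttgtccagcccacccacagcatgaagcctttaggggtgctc
Col4a1 and Col4a2 lay head to head on chromosome 8. Their windows shared 78 bases, and their starts lay 21 bases apart. The Col4a1 window held 1 CCAAT and 1 GC box, and the Col4a2 window 1 CCAAT and 3 GC boxes. The windows of Col1a2 and Col11a1 held 2 and 2, and 1 and 2 of these motifs. TATAAA, the core of the TATA box, was searched as well and was in none of the 4. RefSeq windows were found for 35 of the 44 collagens, 38 windows in all. CCAAT was in 34.2% of them, against 37.4% of 32851 windows of all genes. TATAAA was in 13.2% of collagen windows, against 13.6% of all windows, and the GC box in 60.5%, against 35.7%. No test was made of these shares, and a letter match is a description of the window.

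Collagen transcripts took a large part of each library. Summed over the 44 members, they came to 4519 to 9992 FPKM and to 2.73% to 5.98% of all recovered reads, with a median of 4.31%. The 12 members with a mean above 100 FPKM over the 18 libraries were, in order, Col1a1, Col5a2, Col1a2, Col5a1, Col3a1, Col6a1, Col12a1, Col6a2, Col4a1, Col4a2, Col8a1 and Col2a1. Means were 1931 FPKM for Col1a1 and 1291 FPKM for Col1a2, the chains of type I. Col5a2, a chain of the type V collagen that sits inside type I fibrils, stood between them with 1323 FPKM. The neighbours Col5a2 and Col1a2 overlapped, with 779 to 1797 FPKM for Col5a2 and 648 to 2210.5 FPKM for Col1a2 over the 18 libraries.

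At the other end, 18 members had a mean below 1 FPKM. The 17 that did not reach 1 FPKM in at least 2 libraries were not tested, which leaves 27 tested members among 12599 tested genes. The untested members were Col4a3, Col4a4 and Col4a6, which make basement membrane networks of kidney, lens and other special sites, Col6a4, Col6a5 and Col6a6 of type VI, all 3 type IX genes, Col11a2, Col13a1, Col17a1, Col19a1, Col20a1, Col22a1, Col25a1 and Col26a1. Col13a1, a transmembrane collagen, was listed at 0 in all 18 libraries. For the most abundant member of the other small classes, levels were 78.1 to 161 FPKM for Col8a1, a hexagonal network collagen, 3.78 to 40.0 FPKM for Col18a1, the source of endostatin, and 0.914 to 6.89 FPKM for Col28a1, a von Willebrand factor A domain collagen. Within type IV and within type VI 3 genes were tested and 3 were not, and no type IX gene was tested.

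**Figure D1:**
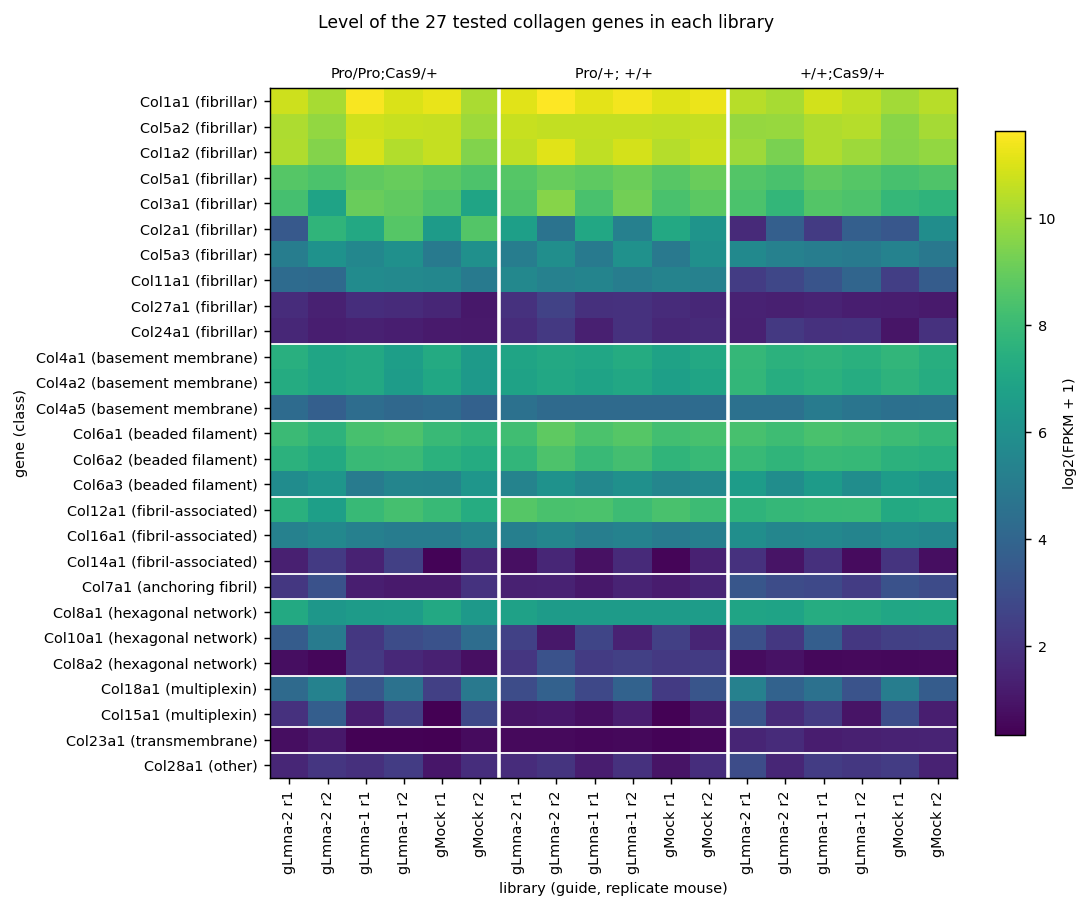
Level of each of the 27 tested collagens, log2(FPKM + 1), by library, with the genotypes and treatments along the horizontal axis and the genes ordered by class down the vertical axis. Col1a1, Col1a2 and Col5a2 have the highest levels in all 18 libraries, and Col11a1, Col4a2 and Col23a1 are those whose levels in the 12 libraries with a Pro allele lie wholly apart from the 6 wild-type Cas9 libraries.

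Chain partners of types I, IV and VI kept close proportions. Ratios here are of FPKM, per length. Col1a1 was 1.34 to 1.75 times Col1a2, with a median of 1.50 over 18 libraries, while Col1a1 itself ranged 2.96-fold. Col4a1 was 1.00 to 1.18 times Col4a2 and Col6a1 1.27 to 1.38 times Col6a2. Col6a1 itself ranged 2.28-fold and Col4a1 2.63-fold. Col4a1 and Col4a2 share a start region, as printed above, and Col6a1 and Col6a2 lie on the same strand of chromosome 10 with 85387 bases between them. Col1a1 and Col1a2 are on chromosomes 11 and 6. The part of gene position in these ratios was not tested. Col3a1 and Col5a2 lie tail to tail on chromosome 1 with 24624 bases between them.

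Other proportions moved widely. Col6a3, whose chain joins those of Col6a1 and Col6a2, was 0.0972 to 0.382 of Col6a1. In homozygous Cas9 cells this ratio was 0.217 and 0.382 with gLmna-2, 0.0972 and 0.125 with gLmna-1 and 0.164 and 0.361 with gMock. Both gLmna-1 values lay below the other 4 libraries of that genotype. Col11a1, which can take the place of a type V chain in fibrils, was 0.0461 and 0.0504 of Col5a1 with gLmna-2, 0.118 and 0.0957 with gLmna-1 and 0.103 and 0.0849 with gMock in the same cells. Over all libraries it was 0.0105 to 0.118 of Col5a1. Col8a1 exceeded Col8a2, its partner in type VIII, by 11.6 to 317 times, the lowest ratio in a heterozygous library and the highest in a wild-type Cas9 library. Col3a1 was 0.103 to 0.257 of Col1a1. Col4a5 exceeded Col4a6, its head-to-head neighbour on chromosome X with 1342 bases between the starts, by 30.8 to 50.4 times.

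**Figure D2:**
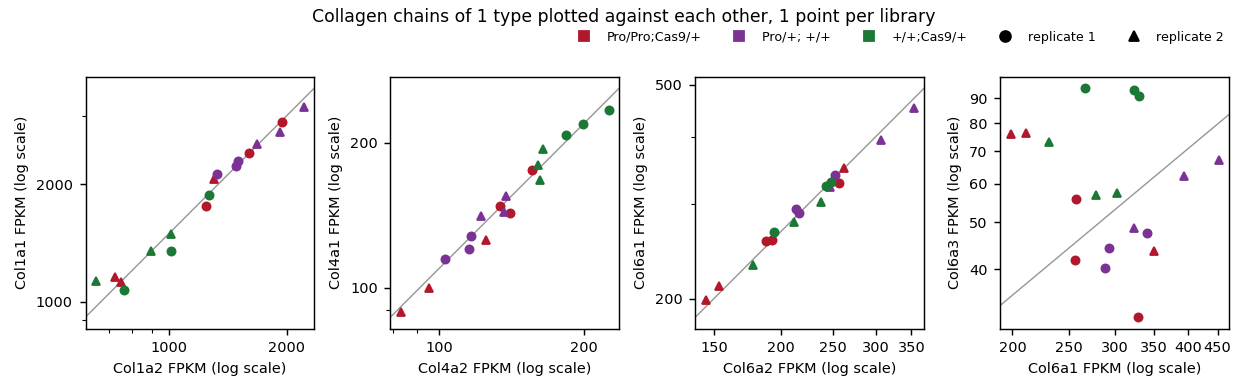
Levels of chain partners against each other in the 18 libraries, in FPKM on log axes, with colours for genotypes, symbols for the mouse and a grey line at the median ratio. Points of Col1a1 with Col1a2, Col4a1 with Col4a2 and Col6a1 with Col6a2 follow a line of constant ratio (ratios 1.34 to 1.75, 1.00 to 1.18 and 1.27 to 1.38), whereas Col6a3 with Col6a1 scatters from 0.0972 to 0.382.

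The table lists parts of transcripts, which allowed exon use to be read in 3 collagens. Each value is the FPKM of the part over the median of the shared parts of that gene in the same library. Exon 2 of Col2a1 (mm10 chr15:98000403-98000606, coding) distinguishes the type IIA form of cartilage precursors, which holds it, from the IIB form of mature chondrocytes, which skips it. Its ratio was 0.358 to 0.820 with a median of 0.643 over 18 libraries. In heterozygous cells, where Col2a1 itself was at 24.0 to 140.4 FPKM, the ratio was 0.636 to 0.704. The lowest and the highest ratio were both in replicate 2 of wild-type Cas9 cells, the lowest with gLmna-2, where Col2a1 was at 12.4 FPKM, and the highest with gMock, where it was at 58.2 FPKM. Over the 18 libraries the exon rested on 5 to 1312 reads. In Col6a3, exons 3, 4 and 6 code for repeated domains of the amino-terminal part that are known to be spliced in and out. Exon 3 (chr1:90827860-90828477) was used at 0.0826 to 0.155 of the shared parts, exon 4 (chr1:90821802-90822404) at 0.264 to 0.578 and exon 6 (chr1:90813215-90813814) at 0.445 to 0.675. Exon 4 in homozygous Cas9 cells was at 0.346 and 0.439 with gLmna-2, 0.36 and 0.472 with gLmna-1 and 0.53 and 0.578 with gMock. Both gMock values lay above the 4 guide values. In Col18a1, a part of 717 bases (chr10:77112959-77113676), which belongs to another annotated Col18a1 transcript than the one whose level is given here, was at 0.0167 to 0.212 of the shared parts. In homozygous Cas9 cells it was at 0.0167 to 0.0851, in heterozygous cells at 0.0826 to 0.212 and in wild-type Cas9 cells at 0.0702 to 0.187. Exon use was not tested, and replicate 2 lay below replicate 1 for this Col18a1 part under each of the 3 treatments of homozygous Cas9 cells but above it in the other genotypes.

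Fibrillar collagens made up 69.9% to 85.6% of summed collagen FPKM, with a median of 80.9%. Beaded filament collagens held 6.22% to 12.1%, fibril-associated collagens 3.15% to 5.85% and basement membrane collagens 2.71% to 9.54%. The basement membrane share was 5.62% and 5.84% with gLmna-2, 3.30% and 2.71% with gLmna-1 and 3.85% and 3.85% with gMock in homozygous Cas9 cells. In heterozygous cells it was 3.36% and 2.98% with gLmna-2, 3.39% and 3.47% with gLmna-1 and 3.29% and 3.41% with gMock. In wild-type Cas9 cells it was 8.48% and 8.09%, 6.14% and 6.04% and 9.54% and 6.75% with the same treatments. Each wild-type Cas9 library thus had a higher basement membrane share than each of the 12 libraries with a Pro allele, and within homozygous Cas9 cells both gLmna-2 libraries had higher shares than the other 4. The fibrillar share was 79.8% and 77.6% with gLmna-2, 85.6% and 82.7% with gLmna-1 and 84.3% and 79.7% with gMock in homozygous Cas9 cells. It was 82.0% to 84.0% in the 6 heterozygous libraries and 69.9% to 76.9% in the 6 wild-type Cas9 libraries. Shares of a total move together by construction, and they were not tested.

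**Figure D3:**
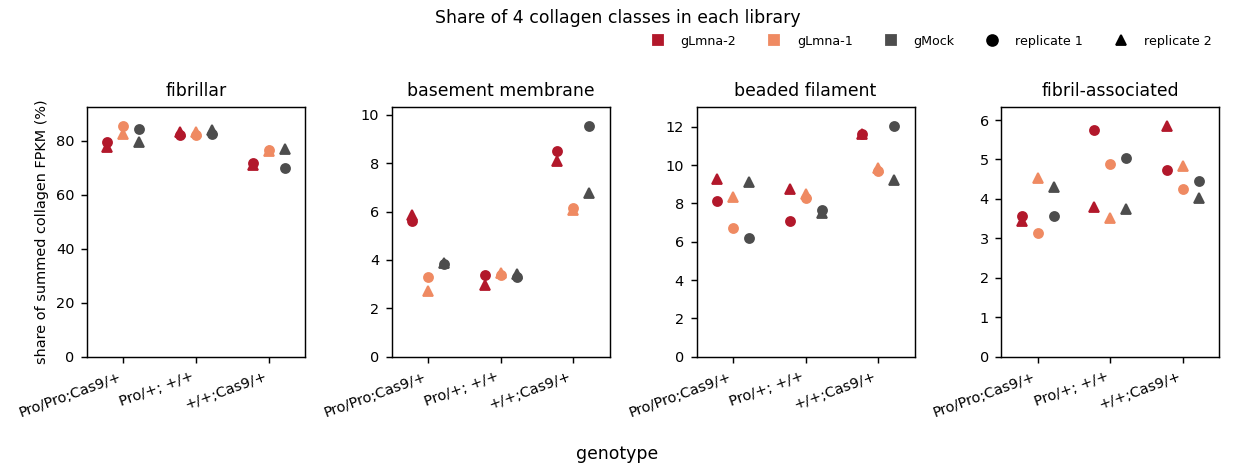
Share of summed collagen FPKM held by 4 collagen classes in each of the 18 libraries, in percent from 0, with genotypes along the horizontal axis, colours for guides and symbols for the 2 mice. Wild-type Cas9 libraries have the lowest fibrillar shares (69.9% to 76.9%), and basement membrane shares run from 2.71% to 9.54%.

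Lmna itself, the target of the guides, passed in none of the comparisons. Between the guides and gMock in homozygous Cas9 cells its log2 change was −0.25 (limma adjusted p = 0.74). A transcript's FPKM does not show small changes in its sequence. Depths, worked back from the spacing of low values, were 22424415 to 42623064 reads. All 8 fibroblast markers had a mean of at least 1 FPKM, and their sum was 453 to 1299 FPKM. Macrophage markers summed to 62.2 to 1490 FPKM, the highest in homozygous Cas9 cells, with all 7 at a mean of 1 FPKM or more and most of the sum from Lyz2 (48.9 to 1224 FPKM). Chondrocyte markers summed to 19.5 to 96.9 FPKM with 4 of the 8 below 1 FPKM on average, keratinocyte markers to 1.09 to 2.89 FPKM and endothelial markers to 0.342 to 2.87 FPKM. In bulk RNA, fewer cells of a type and less RNA per cell cannot be told apart.

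Among the comparisons made, the most collagens passed between the 2 Lmna guides in homozygous Cas9 cells. Of 27 tested collagens, 15 passed between gLmna-2 and gLmna-1, 6 higher and 9 lower with gLmna-2. Over all tested genes 9.95% passed, 6.92% higher and 3.02% lower. The main fibril collagens Col1a1, Col3a1 and Col5a2 and the cartilage collagens Col2a1 and Col11a1 were lower, and Col7a1, Col10a1, Col15a1 and Col6a3 were higher. The median log2 change was −0.22 over the members, against 0.06 over all tested genes. Changes are on log2(FPKM + 1), tested with limma with the mouse as a block and adjusted over all tested genes, with 0.05 as the threshold.

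Among fibrillar collagens 5 of 10 tested members fell and none rose, and the median log2 change of the class was −0.73. Col1a1 (mm10 chr11:94936224-94953042) was at 1755 and 1123 FPKM with gLmna-2, 2895 and 2060.5 FPKM with gLmna-1 and 2402 and 1160.5 FPKM with gMock in homozygous Cas9 cells. Both gLmna-2 values lay below both gLmna-1 values, and the gMock values lay within the range of all 4 (log2 change −0.80, SE 0.19, limma adjusted p = 0.029 for gLmna-2 against gLmna-1). Col1a2, its partner, missed the threshold with 1244 and 750.2 FPKM with gLmna-2, 1939 and 1299 FPKM with gLmna-1 and 1596 and 725 FPKM with gMock (log2 change −0.72, SE 0.20, limma adjusted p = 0.052). Col3a1, the type III chain of skin and vessels (chr1:45311538-45349706), was at 314 and 116 FPKM with gLmna-2, 531 and 462 FPKM with gLmna-1 and 368 and 123 FPKM with gMock. It was lower with gLmna-2 than with gLmna-1 in both mice (log2 change −1.37, SE 0.29, limma adjusted p = 0.022), and in replicate 2 the gMock value was close to that of gLmna-2. Col5a2 (chr1:45374331-45503282) was at 1199 and 876 FPKM with gLmna-2, 1797 and 1631 FPKM with gLmna-1 and 1600.5 and 1001 FPKM with gMock. The guides' ranges did not overlap for Col5a2 either (log2 change −0.74, SE 0.15, limma adjusted p = 0.019). Col11a1 (chr3:114030540-114220756) had the lowest adjusted p of the family, with 18.2 and 17.3 FPKM with gLmna-2, 54.9 and 48.6 FPKM with gLmna-1 and 45.6 and 29.9 FPKM with gMock. Both gLmna-2 libraries lay below the other 4 libraries (log2 change −1.49, SE 0.17, limma adjusted p = 0.0034). Col2a1, the main cartilage collagen (chr15:97975602-98004724), was at 10.2 and 208 FPKM with gLmna-2, 142 and 402 FPKM with gLmna-1 and 92.9 and 391 FPKM with gMock. Here the guides overlapped, and replicate 1 with gLmna-2 stood apart from the 92.9 to 402 FPKM of the other 5 libraries (log2 change −2.31, SE 0.54, limma adjusted p = 0.031). Chondrocyte markers summed to 28.5 and 77.2 FPKM with gLmna-2, 79.0 and 92.3 FPKM with gLmna-1 and 49.1 and 96.9 FPKM with gMock in these libraries. They were lowest in the library with the lowest Col2a1, and their part in the results for Col2a1, Col11a1 and Col10a1 was not tested. The other 4 tested fibrillar collagens, Col5a1, Col5a3, Col24a1 and Col27a1, had log2 changes between −0.40 and 0.11 and did not pass. Without the filter on low values, which adds tests, Col1a1, Col2a1 and Col5a2 no longer passed (limma adjusted p = 0.13, 0.061 and 0.081 in that order), which left Col3a1 and Col11a1 as 2 fibrillar members.

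Type VI chains split. Col6a1 (chr10:76708792-76726044) was at 257 and 199 FPKM with gLmna-2, 328 and 349.5 FPKM with gLmna-1 and 256 and 211 FPKM with gMock (log2 change −0.58, SE 0.14, limma adjusted p = 0.031). Col6a2 (chr10:76595756-76623404) was at 193 and 145 FPKM with gLmna-2, 256 and 262 FPKM with gLmna-1 and 187 and 153 FPKM with gMock (log2 change −0.63, SE 0.13, limma adjusted p = 0.021). Both fell with gLmna-2 relative to gLmna-1, and gMock values were near those of gLmna-2. Without the filter Col6a1 no longer passed (limma adjusted p = 0.058). Col6a3 (chr1:90766860-90843971) was at 55.8 and 75.8 FPKM with gLmna-2, 31.9 and 43.6 FPKM with gLmna-1 and 41.9 and 76.2 FPKM with gMock. It was higher with gLmna-2 in both mice (log2 change 0.79, SE 0.15, limma adjusted p = 0.015), and its gMock values were close to the gLmna-2 value in replicate 2 and between the guides in replicate 1. Of the 3 tested basement membrane collagens, Col4a1 (chr8:11198423-11312826) passed with a small change, at 176 and 126 FPKM with gLmna-2, 143 and 99.8 FPKM with gLmna-1 and 148 and 89.0 FPKM with gMock (log2 change 0.31, SE 0.08, limma adjusted p = 0.041). The gLmna-2 value was the highest of its mouse in both replicates, while the guides overlapped between mice. Col4a2 moved by 0.27 (SE 0.10, limma adjusted p = 0.11) and Col4a5 by −0.23 (SE 0.12, limma adjusted p = 0.26), and neither passed.

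Col12a1, a fibril-associated collagen of tendon and muscle sheaths (chr9:79598987-79718722), was at 182 and 102 FPKM with gLmna-2, 249 and 316 FPKM with gLmna-1 and 245 and 161 FPKM with gMock. It fell with gLmna-2 relative to gLmna-1 in both mice, more in replicate 2 (log2 change −1.03, SE 0.22, limma adjusted p = 0.02). Col14a1 and Col16a1 of the same class did not pass, with log2 changes of −0.16 and 0.27. Among hexagonal network collagens, Col8a2 (chr4:126286794-126314330) fell and Col10a1 (chr10:34389981-34397085), known from hypertrophic cartilage, rose. Col8a2 was at 0.708 and 0.465 FPKM with gLmna-2, 3.68 and 2.08 FPKM with gLmna-1 and 1.58 and 0.717 FPKM with gMock (log2 change −1.26, SE 0.21, limma adjusted p = 0.01). Col10a1 was at 11.3 and 32.0 FPKM with gLmna-2, 3.53 and 6.75 FPKM with gLmna-1 and 8.21 and 19.6 FPKM with gMock (log2 change 1.76, SE 0.32, limma adjusted p = 0.012). For each of these genes the guides did not overlap. Col8a1, the more abundant type VIII chain, was at 145 and 78.1 FPKM with gLmna-2, 90.7 and 93.8 FPKM with gLmna-1 and 140.0 and 86.5 FPKM with gMock and did not pass (log2 change 0.20, SE 0.18, limma adjusted p = 0.55).

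The remaining members that rose with gLmna-2 have low levels. Col7a1, which anchors the skin's basement membrane to the dermis (chr9:108953745-108984875), was at 3.43 and 8.11 FPKM with gLmna-2, 1.45 and 1.23 FPKM with gLmna-1 and 1.20 and 2.96 FPKM with gMock (log2 change 1.44, SE 0.24, limma adjusted p = 0.0094). Col15a1, a multiplexin of basement membrane zones (chr4:47208012-47313165), was at 2.80 and 11.9 FPKM with gLmna-2, 1.34 and 4.50 FPKM with gLmna-1 and 0.262 and 5.78 FPKM with gMock (log2 change 0.97, SE 0.24, limma adjusted p = 0.036). Both genes were higher with gLmna-2 in both mice, and for Col15a1 the mice differed more than the guides. The Col15a1 call was lost with a pseudocount of 0.1, without the filter on low values and with voom on recovered reads (limma adjusted p = 0.16, 0.068 and 0.075 in that order). Col18a1, the other multiplexin, was at 18.02 and 40.0 FPKM with gLmna-2, 9.24 and 23.3 FPKM with gLmna-1 and 4.64 and 28.5 FPKM with gMock and missed the threshold (log2 change 0.83, SE 0.25, limma adjusted p = 0.065). Col23a1, a transmembrane collagen (chr11:51289920-51583925), was at 0.713 and 1.09 FPKM with gLmna-2, 0.318 and 0.321 FPKM with gLmna-1 and 0.279 and 0.604 FPKM with gMock (log2 change 0.52, SE 0.12, limma adjusted p = 0.032). All 4 gLmna-1 and gMock values of Col23a1 lay below the gLmna-2 values. Col28a1 was at 1.96 and 3.34 FPKM with gLmna-2, 2.77 and 4.12 FPKM with gLmna-1 and 1.00 and 2.54 FPKM with gMock and did not pass (log2 change −0.29, SE 0.26, limma adjusted p = 0.55). At such levels the added 1 makes the log2 change smaller than the ratio of the levels.

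**Figure D4:**
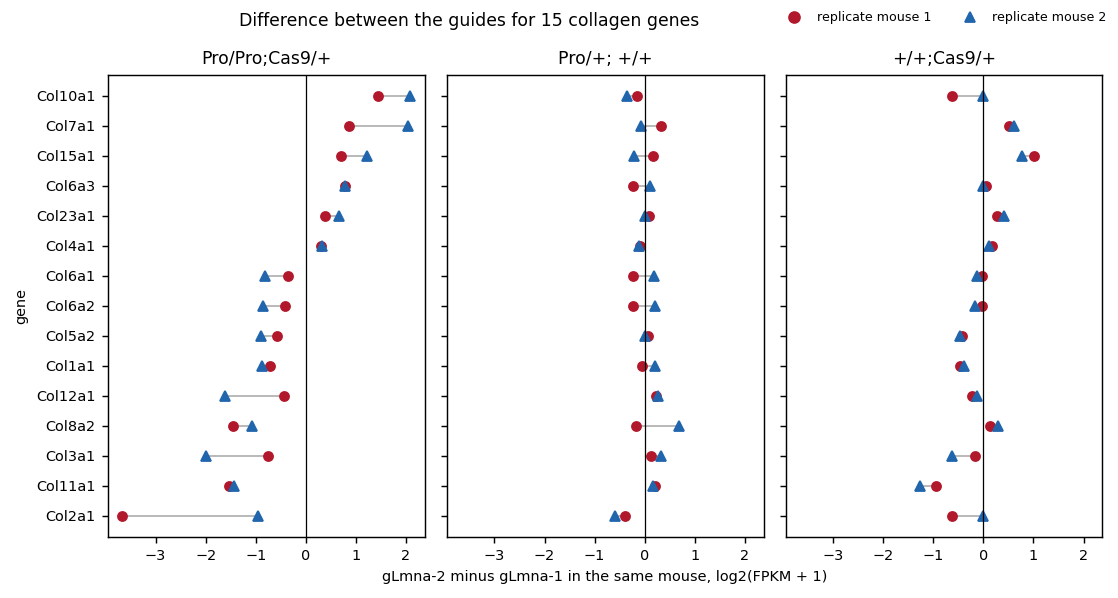
Value with gLmna-2 minus value with gLmna-1 in the same mouse, on log2(FPKM + 1), for the 15 collagens that passed in homozygous Cas9 cells, with a panel per genotype, 1 symbol per mouse and a line that joins the 2 mice. The 15 were chosen by this difference in the homozygous Cas9 libraries with the mouse as a block, which favours genes that move the same way in both mice, so the agreement of the 2 mice in that panel is largely fixed by the choice. In each of the other panels some members lie on the other side of 0 than in homozygous Cas9 cells.

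These calls depended on single libraries: without 1 of the 4 libraries at a time, 3 to 17 collagens passed (3 without replicate 1 and 3 without replicate 2 of gLmna-2, 7 without replicate 2 and 17 without replicate 1 of gLmna-1), and Col11a1 passed each time. The values of 6 members moved by more than 1.5 times. Without gLmna-1 replicate 1 and without gLmna-1 replicate 2, the log2 change was −1.56 and −0.50 for Col12a1, −2.02 and −0.72 for Col3a1, −0.79 and −0.37 for Col6a1, 1.40 and 0.53 for Col15a1 and 1.98 and 0.90 for Col7a1. For Col2a1 it was −3.52 without gLmna-2 replicate 2 and −1.09 without gLmna-2 replicate 1. With the spread estimated within homozygous Cas9 cells alone, or without the mouse in the fit, none passed. Macrophage markers summed to 1490.1 and 742 FPKM with gLmna-2, 448 and 1129 FPKM with gLmna-1 and 573 and 694 FPKM with gMock. Fibroblast markers summed to 846 and 769 FPKM with gLmna-2 and 659.8 and 1030.2 FPKM with gLmna-1. These sums went opposite ways in the 2 mice. So did those of pericyte and smooth muscle markers, at 1182 and 742 FPKM with gLmna-2 and 918 and 954 FPKM with gLmna-1. Within the fibroblast list Dcn, Lum, Pdgfra and Fap went opposite ways too. Prrx1, Thy1, Twist2 and Pdgfrb were higher with gLmna-2 in both mice. Prrx1 was at 42.5 and 43.5 FPKM with gLmna-2 and 17.9 and 15.9 FPKM with gLmna-1. Thy1 was at 158 and 85.6 FPKM against 87.6 and 33.6 FPKM, and Twist2 at 11.9 and 16.9 FPKM against 10.5 and 8.53 FPKM. Tendon markers were nearly equal in replicate 1 (39.0 and 39.1 FPKM) and higher with gLmna-2 in replicate 2 (30.7 and 23.9 FPKM). Some other marker sums went the same way in both mice. Schwann cell markers summed to 24.8 and 78.2 FPKM with gLmna-2 and 12.95 and 41.7 FPKM with gLmna-1. Endothelial markers were near 0, at 1.39 and 2.87 FPKM with gLmna-2 and 0.945 and 0.841 FPKM with gLmna-1. Adipocyte markers were lower with gLmna-2, at 34.9 and 37.3 FPKM against 52.5 and 63.4 FPKM with gLmna-1, and so were osteoblast markers, at 21.2 and 19.4 FPKM against 24.9 and 26.1 FPKM. The part of these cell types in the guide results was not tested.

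No collagen passed between gLmna-2 and gLmna-1 in heterozygous or in wild-type Cas9 cells, where 0% of all tested genes passed. At an unadjusted p under 0.05, 0 of 27 members and 266 of 12599 genes were found in heterozygous cells, and 10 members and 1009 genes in wild-type Cas9 cells. The fibrillar class had a median log2 change of 0.09 in heterozygous cells and −0.36 in wild-type Cas9 cells. As a description, of the 15 collagens chosen by their difference in homozygous Cas9 cells 2 had the same direction in both heterozygous mice, 7 in 1 mouse and 6 in neither. Of wild-type Cas9 mice, both had the same direction for 12, 1 of them for 1 and neither for 2.

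The difference between the guides was also tested between genotypes. Homozygous Cas9 minus heterozygous cells gave 2 collagens, with 2.38% of all tested genes passing. Col11a1 was at 48.2 and 38.1 FPKM with gLmna-2, 41.8 and 34.0 FPKM with gLmna-1 and 40.5 and 38.7 FPKM with gMock in heterozygous cells, where gLmna-2 lay slightly above gLmna-1 in both mice. Its guide difference was lower by 1.67 in homozygous Cas9 cells (log2 change −1.67, SE 0.24, limma adjusted p = 0.024). Col8a2 was at 3.33 and 8.01 FPKM with gLmna-2, 3.91 and 4.63 FPKM with gLmna-1 and 3.66 and 3.97 FPKM with gMock in heterozygous cells, with the mice going opposite ways (log2 change −1.51, SE 0.30, limma adjusted p = 0.041 for homozygous Cas9 minus heterozygous cells). Homozygous Cas9 minus wild-type Cas9 cells gave 0 collagens by limma, with 0.0476% of all genes passing and 11 members and 1250 genes at an unadjusted p under 0.05. The values nearest the threshold were −1.47 (SE 0.30, limma adjusted p = 0.16) for Col8a2 and 2.08 (SE 0.45, limma adjusted p = 0.16) for Col10a1. Col11a1 moved in wild-type Cas9 cells in the same direction as in homozygous Cas9 cells, by −1.11 (SE 0.17, limma adjusted p = 0.18). Without 1 library at a time, 0 to 14 collagens passed between homozygous Cas9 and heterozygous cells, 14 without replicate 1 of gLmna-1 in homozygous Cas9 cells and 0 or 1 without either gLmna-2 library there or any guide library of heterozygous cells. These genotypes differ in Cas9 as well as in the number of Pro alleles, and those cannot be told apart here.

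Against gMock, fewer collagens passed. With both Lmna guides together in homozygous Cas9 cells 1 collagen passed, Col14a1, where 0.0794% of all tested genes did. With gLmna-1 alone and with gLmna-2 alone it was again the 1 collagen to pass, with 0.976% and 0.357% of all genes passing. Col14a1 is a fibril-associated collagen that limits fibril growth (chr15:55307750-55520803), and it was at 1.53 and 3.81 FPKM with gLmna-2, 1.71 and 4.63 FPKM with gLmna-1 and 0.348 and 2.01 FPKM with gMock in homozygous Cas9 cells. Both guides lay above gMock within each mouse, and replicate 2 was above replicate 1 with each treatment. The log2 change against gMock was 0.95 (SE 0.12, limma adjusted p = 0.024) for gLmna-1 and 0.79 (SE 0.12, limma adjusted p = 0.035) for gLmna-2. Both changes share the gMock libraries. With voom, Col14a1 no longer passed for gLmna-2 against gMock and Col11a1 did (log2 change −1.06, limma adjusted p = 0.045). In heterozygous cells Col14a1 was at 0.751 and 1.94 FPKM with gLmna-2, 0.816 and 2.24 FPKM with gLmna-1 and 0.389 and 1.60 FPKM with gMock. There the guides were again above gMock in both mice, without Cas9, and the change did not pass (log2 change 0.30, SE 0.10, limma adjusted p = 1.00). In wild-type Cas9 cells it was at 2.83 and 0.917 FPKM with gLmna-2, 2.69 and 0.597 FPKM with gLmna-1 and 3.09 and 0.693 FPKM with gMock, with no common direction (log2 change −0.04, SE 0.10, limma adjusted p = 0.95).

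The fibrillar class had a median log2 change of 0.45 for gLmna-1 against gMock in homozygous Cas9 cells, with 10 of 10 tested members above 0 and none passing. For gLmna-2 against gMock it was −0.15, with 3 of 10 above 0 and none passing. Over all 27 members the medians were 0.31 for gLmna-1 and 0.14 for gLmna-2, against −0.03 and 0.02 over all tested genes. Col11a1 came nearest the threshold for gLmna-2 against gMock, at −1.02 (SE 0.17, limma adjusted p = 0.053), and Col6a2 for gLmna-1 among the members that missed it, at 0.61 (SE 0.13, limma adjusted p = 0.065). Between the guides and gMock in wild-type Cas9 cells 0 collagens passed by limma, where 0.849% of all genes did, with 5 members and 959 genes at an unadjusted p under 0.05. In heterozygous cells 0 collagens and 0% of genes passed, with 4 members and 397 genes at an unadjusted p under 0.05. The guide effect differed between homozygous Cas9 and wild-type Cas9 cells for 0 collagens (0.0476% of genes, and 4 members at an unadjusted p under 0.05). Between homozygous Cas9 and heterozygous cells it did so for 0 collagens as well (0% of genes, and 1 member and 523 genes at an unadjusted p under 0.05). The Col14a1 call was lost without the mouse in the fit, and without 1 library at a time 0 to 2 collagens passed for both guides, with 0 left without gMock replicate 1, gLmna-1 replicate 2 or either gLmna-2 library and 2 without gLmna-1 replicate 1.

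Across genotypes Col11a1 was the 1 tested member that was higher in all libraries with a Pro allele. All 12 libraries of homozygous Cas9 and heterozygous cells, at 17.3 to 54.9 FPKM, lay above the 6 wild-type Cas9 libraries, at 4.01 to 15.2 FPKM. Wild-type Cas9 cells had 4.01 and 5.73 FPKM with gLmna-2, 8.70 and 15.2 FPKM with gLmna-1 and 4.44 and 11.4 FPKM with gMock, lower with gLmna-2 than with gLmna-1 in both mice. Of all tested genes 1.17% had their libraries with a Pro allele wholly above. Wholly below lay 2, Col4a2 and Col23a1, where 2.12% of all genes did. Col4a2 (chr8:11312805-11449287) was at 83.2 to 155 FPKM in the 12 libraries with a Pro allele and at 160.0 to 225 FPKM in the 6 others, nearly touching. Col23a1 was at 0.279 to 1.09 FPKM against 1.36 to 2.32 FPKM. The other 24 overlapped. These 12 libraries come from 4 mice and the 6 from 2.

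In the gMock libraries, 1 per mouse, 0 collagens passed between homozygous and wild-type Cas9 cells by limma, with 0.397% of all genes passing and 9 members and 1308 genes at an unadjusted p under 0.05. Between heterozygous and wild-type Cas9 cells 0 passed (0.413% of genes, and 8 members and 1577 genes at an unadjusted p under 0.05), and between homozygous Cas9 and heterozygous cells 0 passed (0% of genes, and 5 members and 547 genes at an unadjusted p under 0.05). Col11a1 was higher by 2.21 (SE 0.40, limma adjusted p = 0.12) in homozygous and by 2.31 (SE 0.40, limma adjusted p = 0.12) in heterozygous cells than in wild-type Cas9 cells. Both share the wild-type libraries. Voom on recovered reads also gave 0 collagens in each comparison whose count is 0 here. By contrast, a fit that took the mouse as a random effect over the 18 libraries called 3 in gMock between homozygous and wild-type Cas9 cells, Col11a1, Col23a1 and Col7a1 (limma adjusted p = 0.0023, 0.0049 and 0.024 in that order). Between heterozygous and wild-type Cas9 cells it called these and Col8a2 in gMock (limma adjusted p = 0.0018, 0.0036, 0.012 and 0.0075 in that order). The random-effect fit gives all genes and mice 1 shared correlation, although same-mouse correlations differed by pair, from −0.02 to 0.78. It takes its spread from all 18 libraries, while each genotype still has 2 mice. With the guides, 1 collagen passed between homozygous and wild-type Cas9 cells, Col11a1 (log2 change 1.88, SE 0.21, limma adjusted p = 0.044), where 0.595% of all genes did. With voom Col11a1 no longer passed there and Col23a1 did (log2 change −1.52, limma adjusted p = 0.043). Without 1 of the 8 guide libraries at a time 0 to 3 collagens passed there, and 0 without any of 5 of them: either replicate of gLmna-1 or replicate 1 of gLmna-2 in homozygous Cas9 cells, or replicate 1 of gLmna-1 or replicate 2 of gLmna-2 in wild-type Cas9 cells. Chondrocyte markers summed to 85.5 and 51.1 FPKM with gLmna-2, 96.2 and 43.0 FPKM with gLmna-1 and 90.4 and 44.1 FPKM with gMock in heterozygous cells. Their sums were 19.5 to 29.2 FPKM in wild-type Cas9 cells and 28.5 to 96.9 FPKM in homozygous Cas9 cells, which overlapped. Sox9 of that list overlapped too, at 3.77 to 20.6 FPKM with a Pro allele and 2.54 to 9.88 FPKM in wild-type Cas9 cells. Among those markers Acan, the main cartilage proteoglycan, was at 0.00605 to 3.50 FPKM and Matn1 at 0 to 0.144 FPKM over the 18 libraries. Comp, which tendon also makes, was at 11.3 to 70.9 FPKM. Osteoblast markers summed to 19.4 to 36.5 FPKM in the 12 libraries with a Pro allele and 10.5 to 15.5 FPKM in the 6 wild-type Cas9 libraries. Of that list Alpl was at 4.81 to 24.4 FPKM and 1.18 to 4.08 FPKM in these libraries, while Runx2 and Sp7 overlapped. Adipocyte markers summed to 34.6 to 63.4 FPKM and 20.6 to 31.5 FPKM in the same libraries. Most of that was Fabp4, at 32.4 to 62.1 FPKM and 16.4 to 28.6 FPKM, while Pparg overlapped. Of the fibroblast list, Thy1 was at 33.6 to 158 FPKM and 301 to 547 FPKM in the libraries with and without a Pro allele. Prrx1 was at 15.9 to 43.5 FPKM and 48.6 to 77.4 FPKM, and Twist2 at 5.38 to 16.9 FPKM and 28.8 to 46.4 FPKM. The other fibroblast markers overlapped. Macrophage markers summed to 448 to 1490 FPKM in homozygous Cas9, 68.7 to 581 FPKM in heterozygous and 62.2 to 411 FPKM in wild-type Cas9 cells. The part of these cell types in the Col11a1 difference was not tested.

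Other fibrillar members followed the genotypes less closely. Col2a1 was at 103 and 24.0 FPKM with gLmna-2, 136 and 36.6 FPKM with gLmna-1 and 140.4 and 72.4 FPKM with gMock in heterozygous cells. The 6 wild-type Cas9 libraries were at 2.18 and 12.4 FPKM with gLmna-2, 3.90 and 12.4 FPKM with gLmna-1 and 9.41 and 58.2 FPKM with gMock. It was lower with gLmna-2 than with gMock in each of these 4 mice, and it overlapped between genotypes. Col1a1 was at 2231 and 3162 FPKM with gLmna-2, 2300.4 and 2721 FPKM with gLmna-1 and 2128 and 2542 FPKM with gMock in heterozygous cells. Values in wild-type Cas9 cells were 1350.0 and 1134 FPKM with gLmna-2, 1879 and 1493 FPKM with gLmna-1 and 1070.0 and 1347 FPKM with gMock. Each heterozygous library lay above each wild-type Cas9 library, and homozygous Cas9 cells overlapped both. The share of all tested genes whose heterozygous and wild-type Cas9 libraries lie wholly apart was not counted, here or for the members below. Col3a1 was at 367 and 752 FPKM with gLmna-2, 334 and 602 FPKM with gLmna-1 and 329.8 and 436 FPKM with gMock in heterozygous cells. In wild-type Cas9 cells it was at 347 and 226 FPKM with gLmna-2, 389 and 350.2 FPKM with gLmna-1 and 229 and 206 FPKM with gMock. In heterozygous cells gLmna-2 lay above gLmna-1 in both mice and in wild-type Cas9 cells below it. Col5a2 was at 1649 and 1554 FPKM with gLmna-2, 1563 and 1542 FPKM with gLmna-1 and 1513 and 1574 FPKM with gMock in heterozygous cells. Wild-type Cas9 cells had 928 and 948 FPKM with gLmna-2, 1244 and 1306 FPKM with gLmna-1 and 779 and 1103 FPKM with gMock. The 6 heterozygous libraries were close to each other and all above the wild-type Cas9 libraries.

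**Figure D5:**
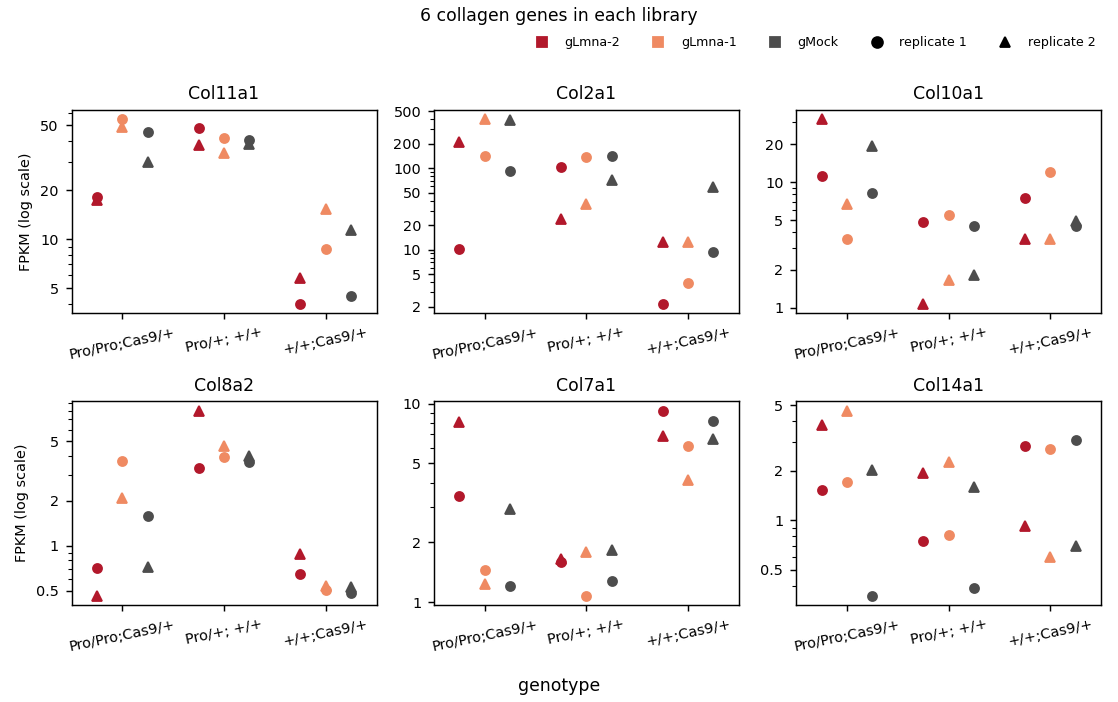
FPKM on a log axis of 6 collagens in each library, with genotypes along the horizontal axis, colours for guides and symbols for the 2 mice. Col11a1 is at 17.3 to 54.9 FPKM in the 12 libraries with a Pro allele and at 4.01 to 15.2 FPKM in wild-type Cas9 cells, and in homozygous Cas9 cells its gLmna-2 points lie below the others.

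Basement membrane and type VI members ran the other way or overlapped. Col4a1 was at 120.4 and 143 FPKM with gLmna-2, 128 and 155 FPKM with gLmna-1 and 115 and 141 FPKM with gMock in heterozygous cells. The 6 wild-type Cas9 libraries were at 234 and 194 FPKM with gLmna-2, 207 and 179 FPKM with gLmna-1 and 218 and 167 FPKM with gMock. All heterozygous libraries lay below all wild-type Cas9 libraries, while 176 FPKM in 1 homozygous Cas9 library exceeded the lowest wild-type value. Col6a1 was at 289 and 452 FPKM with gLmna-2, 340.1 and 395 FPKM with gLmna-1 and 293 and 323 FPKM with gMock in heterozygous cells. Values in wild-type Cas9 cells were 323 and 278 FPKM with gLmna-2, 330.0 and 302 FPKM with gLmna-1 and 266 and 231 FPKM with gMock. These overlapped, and both guides lay above gMock in each wild-type mouse. Col6a2 was at 216 and 354 FPKM with gLmna-2, 252 and 307 FPKM with gLmna-1 and 214 and 247 FPKM with gMock in heterozygous cells. In wild-type Cas9 cells it was at 243 and 212 FPKM with gLmna-2, 247 and 237 FPKM with gLmna-1 and 194 and 177 FPKM with gMock, and it followed Col6a1. Col6a3 was at 40.2 and 67.3 FPKM with gLmna-2, 47.6 and 62.3 FPKM with gLmna-1 and 44.3 and 48.7 FPKM with gMock in heterozygous cells. Wild-type Cas9 cells had 93.7 and 56.8 FPKM with gLmna-2, 90.8 and 57.5 FPKM with gLmna-1 and 94.4 and 73.1 FPKM with gMock. Replicate 1 of the wild-type mice stood above all other libraries.

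Of the low members, Col7a1 was at 1.59 and 1.65 FPKM with gLmna-2, 1.08 and 1.78 FPKM with gLmna-1 and 1.28 and 1.84 FPKM with gMock in heterozygous cells. The 6 wild-type Cas9 libraries were at 9.20 and 6.85 FPKM with gLmna-2, 6.12 and 4.12 FPKM with gLmna-1 and 8.19 and 6.63 FPKM with gMock. Heterozygous libraries were all below wild-type ones, and of the homozygous Cas9 libraries only replicate 2 with gLmna-2 lay within the wild-type range. In the gMock libraries its log2 change against wild-type Cas9 cells was −1.50 (SE 0.31, limma adjusted p = 0.16) in homozygous Cas9 cells and −1.72 (SE 0.31, limma adjusted p = 0.12) in heterozygous cells. Col23a1 was at 0.559 and 0.523 FPKM with gLmna-2, 0.47 and 0.506 FPKM with gLmna-1 and 0.356 and 0.431 FPKM with gMock in heterozygous cells. Values in wild-type Cas9 cells were 1.85 and 2.32 FPKM with gLmna-2, 1.36 and 1.48 FPKM with gLmna-1 and 1.69 and 1.77 FPKM with gMock. Each of these lay above each heterozygous value. In the gMock libraries its change was −0.93 (SE 0.18, limma adjusted p = 0.14) in homozygous Cas9 cells and −0.97 (SE 0.18, limma adjusted p = 0.14) in heterozygous cells. Col8a2 was at 0.644 and 0.875 FPKM with gLmna-2, 0.509 and 0.539 FPKM with gLmna-1 and 0.485 and 0.527 FPKM with gMock in wild-type Cas9 cells, below each heterozygous library (log2 change 1.68, SE 0.23, limma adjusted p = 0.066 for heterozygous against wild-type Cas9 cells in gMock). Col8a1 was at 110.4 and 92.7 FPKM with gLmna-2, 90.2 and 90.5 FPKM with gLmna-1 and 92.97 and 95.8 FPKM with gMock in heterozygous cells. In wild-type Cas9 cells it was at 121 and 119 FPKM with gLmna-2, 161 and 153 FPKM with gLmna-1 and 127 and 132 FPKM with gMock, above each heterozygous library. The levels of the type VIII partners thus lay opposite ways in these 2 mice per genotype, and neither gene passed between heterozygous and wild-type Cas9 cells in gMock.

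Col10a1 was at 4.82 and 1.08 FPKM with gLmna-2, 5.47 and 1.65 FPKM with gLmna-1 and 4.48 and 1.81 FPKM with gMock in heterozygous cells. Wild-type Cas9 cells had 7.45 and 3.54 FPKM with gLmna-2, 12.1 and 3.54 FPKM with gLmna-1 and 4.50 and 4.95 FPKM with gMock. In heterozygous cells gLmna-2 lay below gLmna-1 in both mice, and in wild-type Cas9 cells in replicate 1, with nearly equal values in replicate 2. Col12a1 was at 404 and 331 FPKM with gLmna-2, 344 and 273 FPKM with gLmna-1 and 329 and 271 FPKM with gMock in heterozygous cells. The 6 wild-type Cas9 libraries were at 207 and 229 FPKM with gLmna-2, 242 and 249 FPKM with gLmna-1 and 147 and 162 FPKM with gMock, where both guides lay above gMock in both mice. The heterozygous libraries all lay above the wild-type ones. Col15a1 was at 0.888 and 1.05 FPKM with gLmna-2, 0.677 and 1.39 FPKM with gLmna-1 and 0.313 and 0.977 FPKM with gMock in heterozygous cells. Values in wild-type Cas9 cells were 8.82 and 2.22 FPKM with gLmna-2, 3.89 and 0.884 FPKM with gLmna-1 and 7.02 and 1.47 FPKM with gMock. Col18a1 was at 6.75 and 13.3 FPKM with gLmna-2, 5.86 and 13.8 FPKM with gLmna-1 and 3.78 and 8.84 FPKM with gMock in heterozygous cells. For both multiplexins the wild-type mice stood far apart, as Col18a1 was at 38.1 and 13.6 FPKM with gLmna-2, 22.3 and 8.44 FPKM with gLmna-1 and 34.3 and 11.5 FPKM with gMock in wild-type Cas9 cells. Col28a1 was at 2.41 and 3.14 FPKM with gLmna-2, 1.34 and 2.81 FPKM with gLmna-1 and 0.914 and 2.49 FPKM with gMock in heterozygous cells. In wild-type Cas9 cells it was at 6.89 and 1.90 FPKM with gLmna-2, 4.05 and 3.55 FPKM with gLmna-1 and 4.00 and 1.68 FPKM with gMock, again overlapping. Col1a2, Col4a5, Col5a1, Col5a3, Col16a1, Col24a1 and Col27a1 passed in no comparison of the reported fit, and their 18 libraries lay at 648 to 2210.5, 12.5 to 31.7, 320.0 to 549, 28.2 to 67.4, 31.5 to 58.6, 0.957 to 3.69 and 1.10 to 4.89 FPKM in that order.

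Mice of the same genotype also differed. With the 3 libraries of each mouse averaged, the median fold between the 2 mice over the 27 tested collagens was 1.51 in homozygous Cas9 cells, 1.33 in heterozygous cells and 1.22 in wild-type Cas9 cells. Above 2-fold were 6, 5 and 6 members. The greatest was Col2a1 in wild-type Cas9 cells, with 27.7 FPKM in replicate 2 and 5.17 FPKM in replicate 1, a fold of 5.36. Col15a1 followed with 5.03 in homozygous Cas9 cells, where replicate 2 was higher, and Col14a1 with 3.91 in wild-type Cas9 cells, where replicate 1 was. All p-values between genotypes rest on these 2 mice per group.

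The proteins that process collagen gave a count of their own between gLmna-2 and gLmna-1 in homozygous Cas9 cells. Of 23 tested genes for chain modification and folding, 11 fell and 0 rose, where 3.02% and 6.92% of all genes did, and the median log2 change was −0.29. Creb3l1, a transcription factor of collagen secretion, changed by −0.61 (SE 0.09, limma adjusted p = 0.0078), Serpinh1, the collagen chaperone HSP47, by −0.66 (SE 0.12, limma adjusted p = 0.011) and P4ha1, a prolyl hydroxylase subunit, by −0.61 (SE 0.12, limma adjusted p = 0.015). For propeptide cleavage and cross-linking, 2 of 13 rose and 4 fell, with a median of −0.06. The cross-linking oxidases Loxl1 and Lox changed by −0.67 (SE 0.13, limma adjusted p = 0.016) and −1.004 (SE 0.24, limma adjusted p = 0.03), and Loxl3 by 0.90 (SE 0.23, limma adjusted p = 0.039). Of 19 collagen-binding matrix genes 1 rose and 4 fell (median −0.09), among them Nid2, a basement membrane linker, at −1.31 (SE 0.19, limma adjusted p = 0.0065), Ogn, a small proteoglycan, at −1.52 (SE 0.25, limma adjusted p = 0.0095) and Sparc, which binds collagen, at −0.55 (SE 0.12, limma adjusted p = 0.024).

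More receptors and degradation genes rose than fell, and so did more of all tested genes (6.92% higher and 3.02% lower). Whether these lists differ from all genes in that split was not tested. Of 11 collagen receptors tested, 4 rose and 2 fell (median 0.31). Itgb1, the integrin beta chain shared by collagen receptors, changed by 0.64 (SE 0.08, limma adjusted p = 0.0044), Cd44 by 1.19 (SE 0.19, limma adjusted p = 0.0087) and the receptor kinase Ddr1 by −0.73 (SE 0.16, limma adjusted p = 0.023). Of 13 degradation genes 4 rose and 1 fell (median 0.30), with the stromelysin Mmp10 at 2.65 (SE 0.41, limma adjusted p = 0.0076), the collagenase Mmp13 at −1.14 (SE 0.19, limma adjusted p = 0.0093) and the inhibitor Timp2 at 0.64 (SE 0.12, limma adjusted p = 0.014). The other risen genes of that list were Timp1 and Timp3, which inhibit the proteases too. No gene of the 5 lists passed between the guides in heterozygous or wild-type Cas9 cells. The difference between homozygous Cas9 and heterozygous cells passed for Cd44 (1.57, limma adjusted p = 0.031), Creb3l1 (−0.64, limma adjusted p = 0.045), Itgb1 (0.72, limma adjusted p = 0.025), Mmp13 (−1.71, limma adjusted p = 0.025), Nid2 (−1.51, limma adjusted p = 0.034) and Ogn (−1.74, limma adjusted p = 0.042). Against gMock in homozygous Cas9 cells, gLmna-1 gave Creb3l1, at 0.53 (SE 0.09, limma adjusted p = 0.045), and Loxl1, at 0.87 (SE 0.13, limma adjusted p = 0.03). Between homozygous and wild-type Cas9 cells in gMock, Dpt, which binds collagen fibrils in the dermis, changed by −3.49 (SE 0.33, limma adjusted p = 0.037).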

How the data were processed

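RNA was sequenced from 18 libraries of 6 mice. The authors deposited FPKM computed by HOMER, and, per the file headers, each of 404759 exonic transcript parts has a row of its own. Part lengths, an other unit in the deposited table, are given in bases per the file headers. Reads were checked with FastQC 0.11.2 and aligned to mm10 with STAR 2.4.0k, per the submitters' processing notes. The protocol's strand is not stated, so that antisense and overlapping transcripts, such as the overlapping starts of Col4a1 and Col4a2, cannot be told apart. The table has 24 library columns, of which 6 match no labelled sample and were not used.

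Parts were combined by length into 36795 transcripts, which were named from RefSeq (36474) and GENCODE metadata (194). The transcript with the highest mean FPKM stood for each of 24445 symbols, which matters for the 15 collagens with more than 1 transcript. The design had assumed rows of genes. Library depths were worked back from the spacing of low values, and 100% of the values then came out as whole reads within 0.05.

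A gene was tested where 2 libraries or more reached 1 FPKM (12599 genes). The test, on log2(FPKM + 1), was limma 3.58.1 (trended eBayes, R 4.3.3) with Benjamini-Hochberg adjustment over all tested genes and a threshold of 0.05. Guide comparisons used all 18 libraries with the mouse, which the labels name, as a fixed block (6 residual degrees of freedom). After group means were removed, the correlation of same-mouse libraries differed by pair. In homozygous Cas9 cells it was −0.02 for gLmna-1 with gLmna-2, 0.13 for gMock with gLmna-1 and 0.78 for gMock with gLmna-2. It was 0.47 to 0.73 in heterozygous cells and 0.18 to 0.59 in wild-type Cas9 cells. Genotype comparisons used the 6 gMock libraries, or the guide libraries averaged per mouse (3 residual degrees of freedom). The fits were also run on simulated data with 200 changed genes. No outcome of that run is given here, so it does not show how the fits handle differences between mice. Values in every library are given for collagens that passed in any comparison and for the most abundant of each class. Of each pathway list up to 3 passing genes with the smallest adjusted p and a mean of at least 2 FPKM are named, and Lmna as the target. Col1a2, Col4a2 and other members without a call are named outside this rule, as every member is accounted for. The members, classes and lists were chosen with earlier results of these data known. Alternatives were the block, the genotypes in the fit, a random mouse effect, the pseudocount, the filter, the scaling, voom on recovered reads and leaving out each library. Tables were made in Python 3.11.15 (pandas 2.3.3, numpy 2.4.6), and figures with matplotlib 3.10.9.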

Additional observations from a re-analysis of the deposited data

Results flagged for a closer look

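The difference between gLmna-2 and gLmna-1 was itself different between homozygous Cas9 and heterozygous cells for 2 collagens, by the limma test of that difference. For Col11a1, a chain of cartilage fibrils and a partner of type V collagen, it was −1.67 (adjusted p = 0.024), with gLmna-2 below gLmna-1 in both homozygous mice and above it in both heterozygous mice. For Col8a2, a type VIII chain, it was −1.51 (adjusted p = 0.041), with gLmna-2 below gLmna-1 in both homozygous mice and the heterozygous mice going opposite ways. In wild-type Cas9 mice gLmna-2 minus gLmna-1 was −0.95 and −1.27 for Col11a1 and 0.12 and 0.28 for Col8a2. Against wild-type Cas9 cells the guide difference passed for 0 collagens. Both calls were lost without the filter on low values, without the mouse in the fit and with the compared genotypes alone.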

How the results depend on the processing

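No alternative turned the direction of a collagen that passed. Of the checks of single collagens that passed, 122 kept the threshold under an alternative and 122 lost it. Under the alternatives 152 counts of collagens stayed within 1.5 times the count reported, while 54 did not. Counts of 0 that stayed at 0 are among the 152. The guide calls in homozygous Cas9 cells depended on having the mouse in the fit. Without it in the fit (no replicate block) 0 collagens passed in homozygous Cas9 cells between guides and gMock, gLmna-1 and gMock, gLmna-2 and gMock, or gLmna-2 and gLmna-1, and 0 in the guide difference between homozygous Cas9 and heterozygous cells. With a fit on the compared genotypes alone, which leaves fewer libraries to estimate the spread, the same 5 counts were 0, and between guides and gMock in wild-type Cas9 cells 1 collagen passed, Col12a1 (limma log2 change 0.58, adjusted p = 0.048). With all 18 libraries and the mouse as a random effect, 3 collagens passed between homozygous and wild-type Cas9 cells in gMock, 4 between heterozygous and wild-type Cas9 cells in gMock, and 4 between homozygous and wild-type Cas9 cells with the guides.

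A pseudocount of 0.1 left 0 collagens for guides and for gLmna-2 against gMock in homozygous Cas9 cells. Without the filter on low values, which adds tests, 0 passed for guides, gLmna-1 and gLmna-2 against gMock, 0 in the guide difference between homozygous Cas9 and heterozygous cells and 0 between homozygous and wild-type Cas9 cells with the guides. Between gLmna-2 and gLmna-1 in homozygous Cas9 cells 11 passed without the filter, with Col1a1, Col2a1, Col5a2, Col6a1 and Col15a1 lost and Col9a2 added. Voom gave 15 there, with Col15a1 lost and Col1a2 added. Voom on the recovered reads gave 0 for guides against gMock in homozygous Cas9 cells and 4 in the guide difference between homozygous Cas9 and heterozygous cells, Col10a1, Col11a1, Col7a1 and Col8a2. The causes of these changes were not tested beyond what the settings themselves remove or add. Scaling by median ratios moved the median of all genes by less than 0.1 and left 5 collagens higher and 9 lower between gLmna-2 and gLmna-1, as Col4a1 no longer passed (limma adjusted p = 0.14).

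Without 1 library at a time, in homozygous Cas9 cells, 3 to 17 collagens passed between gLmna-2 and gLmna-1, 0 to 2 between guides and gMock, 0 to 10 between gLmna-1 and gMock and 0 to 1 between gLmna-2 and gMock. The guide effect against wild-type Cas9 cells gave 0 to 1. The guide difference gave 0 to 4 against wild-type Cas9 cells and 0 to 14 against heterozygous cells, and homozygous against wild-type Cas9 cells with the guides 0 to 3. For gLmna-1 against gMock, 10 passed without gLmna-1 replicate 1, and 0 without gLmna-1 replicate 2 or gMock replicate 2.

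Over all genes, voom and the reported fit gave 216 and 123 calls for gLmna-1 against gMock in homozygous Cas9 cells, and 468 and 300 for the guide difference against heterozygous cells. They gave 19 and 6 for that against wild-type Cas9 cells, where scaling gave 10. Between homozygous and wild-type Cas9 cells in gMock voom gave 28, scaling 32 and the reported fit 50, and for the guide effect between them scaling gave 1 and the reported fit 6. Genes near 1 FPKM and 2 mice per genotype limit what can be detected.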
